A study of Homo sapiens with 4 samples.

Results

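The aldehyde dehydrogenase genes ALDH1A1, ALDH1A2, ALDH1A3, ALDH1B1, ALDH2, ALDH3A1, ALDH3A2, ALDH3B1, ALDH7A1 and ALDH9A1 were examined in irradiated and unirradiated pancreatic cancer cells. These 10 genes were chosen by name, and all 10 were found among the 58174 genes with an Ensembl identifier in the deposited table. The cells came from the established human pancreatic cancer lines SW1990 and PANC-1, and RNA was sequenced from each line unirradiated and irradiated with X-rays at 10 Gy. Each of these 4 groups had 1 library. The labels of unirradiated and irradiated cells of a line name no difference other than radiation. Any difference of culture or library preparation between them cannot be told apart from radiation. SW1990 cells were grown in RPMI 1640 and PANC-1 cells in DMEM, so line and medium cannot be told apart. The time between radiation and RNA collection is not given in the sources used here. Counts on named genes summed to 17851815 in unirradiated SW1990, 18305682 in irradiated SW1990, 23323266 in PANC-1 without and 20026595 in PANC-1 with radiation. Against these depths, 3 counts, the floor used below, equal between 0.129 and 0.168 CPM, that is, counts relative to library depth. With 1 library per group, a radiation difference within a line has no replicate check, and all intervals given are 95% counting intervals that cover counting error only.

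Aldehyde dehydrogenases oxidize aldehydes to carboxylic acids with NAD+ or NADP+, and so clear reactive aldehydes that arise from alcohol, lipid peroxidation and amino acid breakdown. The ALDH1A enzymes also make retinoic acid, a ligand of nuclear receptors, from retinaldehyde. High ALDH activity, read in living cells with a fluorescent substrate, is widely used to enrich stem-like tumor cells. Several family members can contribute to that readout. In the study, ALDH1A1 served as the marker of tumor repopulating cells, the cells that regrow a tumor after radiotherapy.

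The lines were checked against markers of epithelium and of other cells of the pancreas. All 6 epithelial markers reached an FPKM (expression scaled to transcript length and library size) of at least 1 in both SW1990 libraries, and 5 and 6 of 6 did so in unirradiated and irradiated PANC-1 cells. KRT8, a keratin of simple epithelia, was the most abundant of them, with FPKM values of 1350, 1890, 786 and 851 in unirradiated and irradiated SW1990 and unirradiated and irradiated PANC-1 cells, an order kept for all values below. CDH1, the adhesion protein E-cadherin, differed widely between the lines, at 140 and 239 FPKM in SW1990 and 0.673 and 1.21 FPKM in PANC-1 cells. The 4 endocrine markers were listed at 0 in every library, and the 5 acinar markers summed to 0.604, 0.448, 0 and 0 FPKM. The leukocyte list summed to 1.77, 2.25, 19.2 and 15 FPKM. CD68, a lysosomal protein, made up 18.8 and 13.9 FPKM of it in PANC-1 cells, while the defining marker PTPRC had 0, 2, 0 and 0 counts. The fibroblast list summed to 2.96, 3.88, 8.46 and 11.1 FPKM and was led by COL1A1 in PANC-1 cells, with 3 of its 5 genes at 0. The 3 endothelial markers summed to at most 0.309 FPKM. Between the lines (edgeR, as below), 4 of 6 epithelial markers were called higher in SW1990 cells (EPCAM, CDH1, KRT8 and KRT18), against 21.4% of all genes. COL1A1 and CD68 were called higher in PANC-1 cells, with log2 fold changes of SW1990 over PANC-1 of -3.0 and -4.35. PDGFRB, a receptor of fibroblasts and pericytes (129, 63, 0 and 3 counts), and VWF, an endothelial clotting protein (14, 50, 2 and 4 counts), were called higher in SW1990 cells. The part of these markers in the line differences given below was not tested. In bulk RNA, fewer cells of a type and less RNA per cell cannot be told apart.

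ALDH1A1, the marker gene of the study, was close to absent from these libraries. The study itself reported more ALDH1A1 after 10 Gy, by qPCR in both lines and by western blot in PANC-1 cells. Those are other measures than the read counts given here. The primers with which the study measured ALDH1A1 by qPCR are shown with their mismatches to its relatives. Whether the primers amplify only ALDH1A1 was not tested here. Bases in capitals differ from the best ungapped match in the transcripts of ALDH1A3.
ALDH1A1 forward primer: aCgccagACttAcCTgTcCTActc
ALDH1A1 reverse primer: gccttgtcAacAtcCTCcttatctcc
Both primers are written 5′ to 3′. On GRCh38, the forward primer lies in the first exon of ALDH1A1, on the minus strand at chr9:72952962-72952985, and the reverse primer spans the junction of exons 2 and 3, at chr9:72931003-72940156. The forward primer had 10 mismatches to ALDH1A3, 9 to ALDH1A2, 9 to ALDH1B1 and 7 to ALDH2, and the reverse primer had 5, 7, 9 and 4. Among GENCODE 29 transcripts, both primers matched 4 of the 7 transcripts of ALDH1A1, with a product of 173 bases, and no transcript of another gene. No 100-base window of ALDH1A1 was shared with another gene. This share was under 1% for 7 of the 10 genes, and reached 21% for ALDH1A3, 5.87% for ALDH2 and 2.82% for ALDH1A2, mostly through overlapping genes.

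ALDH1A1 (ENSG00000165092, chr9:72900662-73080442, minus strand) had 0 counts in unirradiated SW1990, 4 in irradiated SW1990, and 0 in both PANC-1 libraries. The 4 counts equal 0.219 CPM (interval 0.0595 to 0.559) and an FPKM of 0.0835. Only the irradiated SW1990 library held any read of the gene. In the libraries at 0, the floor of 3 counts equals 0.168 CPM in unirradiated SW1990, 0.129 in unirradiated PANC-1 and 0.15 in irradiated PANC-1 cells, and the upper ends of the exact Poisson intervals are 0.207, 0.158 and 0.184 CPM. A difference was not detectable at this depth. ALDH1A1 did not pass the filter on low counts and entered none of the tests reported here; without that filter it was tested and not called.

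Levels between genes were compared by FPKM, the length-scaled unit. In SW1990 cells, ALDH3A1, which oxidizes aromatic and lipid-derived aldehydes, ranked first at 79.9 and 74.4 FPKM in unirradiated and irradiated cells. ALDH1B1, a mitochondrial relative of ALDH2, came next at 56.8 and 62.7 FPKM. ALDH3A2, the fatty aldehyde dehydrogenase, followed at 35 and 27.1 FPKM. The ranges of ALDH2, ALDH9A1 and ALDH7A1 came after these: that of ALDH2 (25 and 14.2 FPKM) covered those of ALDH9A1 (23.2 and 23.7 FPKM) and ALDH7A1 (21.1 and 20.8 FPKM), so their order was not fixed. ALDH3B1 (5.49 and 6.25 FPKM) and ALDH1A3 (3.53 and 6.19 FPKM) also overlapped. In total, 8 of the 10 genes reached 1 FPKM in each SW1990 library.

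PANC-1 cells had another order. ALDH1A3, a retinaldehyde dehydrogenase, ranked first at 27.2 and 34.2 FPKM. ALDH9A1, which makes a precursor of carnitine, had 18.2 and 18.7 FPKM, ALDH3A2 17.4 and 16.3 FPKM, and ALDH1B1 13.6 and 19 FPKM, and the range of ALDH1B1 covered both others. ALDH7A1 (4.23 and 5.4 FPKM) and ALDH3B1 (1.69 and 2.03 FPKM) were lower, ALDH1A2 stayed under 1 FPKM, and ALDH2, ALDH3A1 and ALDH1A1 were at or close to 0. Of the 10 genes, 6 reached 1 FPKM in each PANC-1 library.

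**Figure D1:**
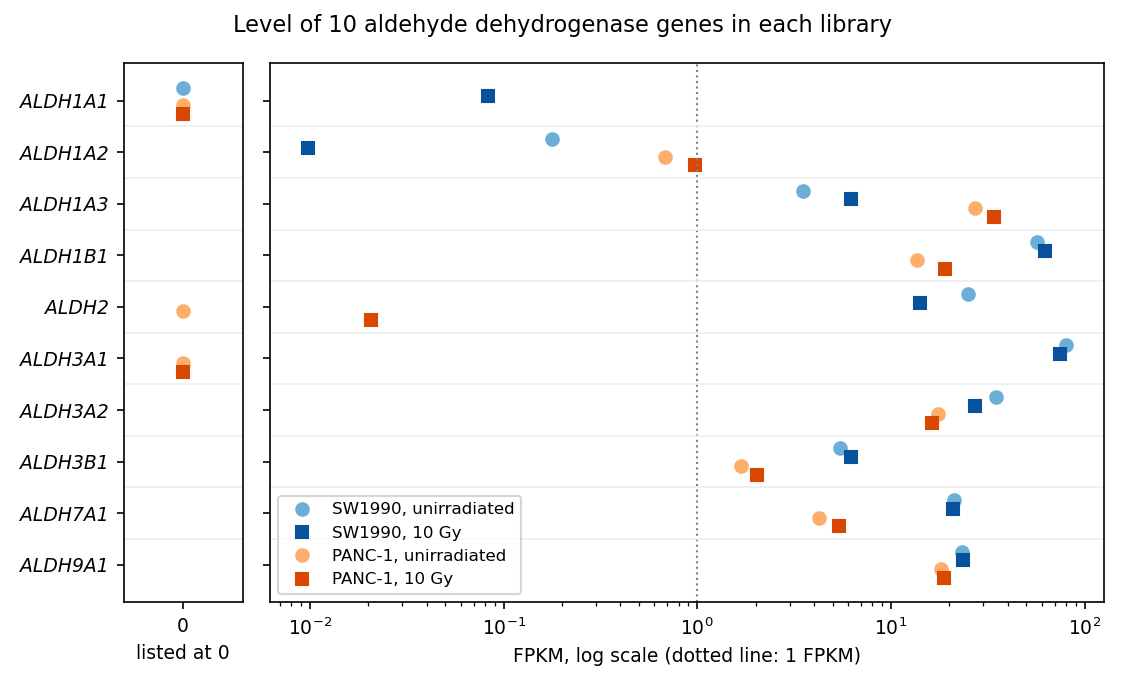
FPKM (log scale) of the 10 genes in the 4 libraries, with values listed at 0 in the left panel. ALDH3A1 is high in both SW1990 libraries and at 0 in both PANC-1 libraries, ALDH1A3 is higher in PANC-1 cells, and ALDH1A1 is at 0 in 3 of the 4 libraries.

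The summed FPKM of the 10 genes was 250.2 and 235.5 in SW1990 and 83.02 and 96.58 in PANC-1 cells. ALDH3A1 made up 31.9% and 31.6% of the sum in SW1990 cells, and ALDH1B1 22.7% and 26.6%. In PANC-1 cells ALDH1A3 made up 32.7% and 35.4%, against 1.41% and 2.63% in SW1990 cells. The leading gene of each line therefore held a similar share of a sum that differed in size. The sums have 1 library per group and were not tested.

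**Figure D2:**
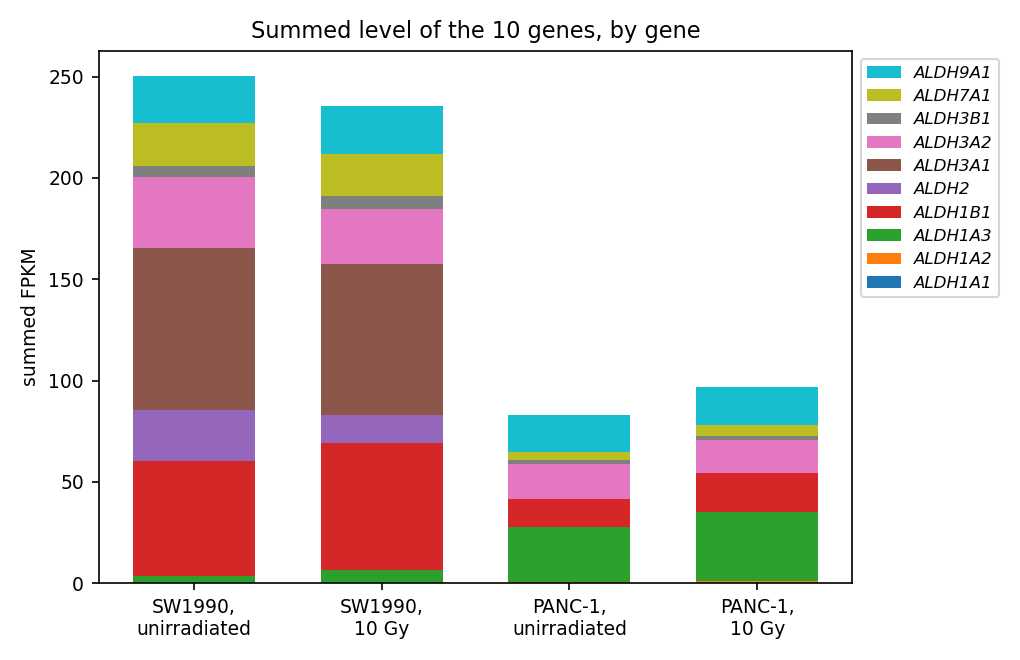
Summed FPKM of the 10 genes in each library, stacked by gene. The SW1990 bars reach 250.2 and 235.5 and contain a large ALDH3A1 segment that is missing from the PANC-1 bars (83.02 and 96.58), where the ALDH1A3 segment is the largest.

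The first comparison asked how the genes differ between the 2 lines, with the irradiated and unirradiated library of each line. Of the 9 genes tested, 7 differed, 6 of them higher in SW1990 cells (ALDH1B1, ALDH2, ALDH3A1, ALDH3A2, ALDH3B1 and ALDH7A1) and 1 higher in PANC-1 cells (ALDH1A3). The test was edgeR's quasi-likelihood test on counts with treatment as a covariate, at an adjusted p under 0.05. Across all 18180 genes tested, 43.6% passed this threshold, 21.4% higher in SW1990 and 22.2% higher in PANC-1 cells. The median log2 fold change of SW1990 over PANC-1 was 1.13 over the 9 genes, also with ALDH3A1 set to its bound, and close to 0 over all genes (-0.0026). The 2 libraries of a line differ in treatment and are not replicate cultures. With treatment as a covariate, 1 residual degree of freedom remains, which is the difference in response between the lines. The p-values set the line difference against that spread, which edgeR pools in part across genes, and not against spread between replicate cultures.

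Among the retinaldehyde dehydrogenases, ALDH1A3 (ENSG00000184254, chr15:100877714-100916626, plus strand) had 250, 463, 2667 and 3022 counts. Both PANC-1 libraries lay far above both SW1990 libraries. The fitted log2 fold change of SW1990 over PANC-1 was -2.95 (edgeR adjusted p = 0.00143), with -3.24 between the unirradiated and -2.66 between the irradiated libraries. The antisense gene AC015712.2 overlaps 27.5% of the exon bases of ALDH1A3 and had 114, 97, 179 and 166 counts. Whether strand was used in counting is not given in the sources used here, so reads of the pair cannot be told apart in the overlap. ALDH1A2 (ENSG00000128918, chr15:57953424-58497866, minus strand), another enzyme of this step, had 6, 1, 14 and 16 counts. Its fitted log2 fold change of -2.06 did not pass (edgeR adjusted p = 0.15), and the pairs were far apart, with -1.05 (-2.72 to 0.42) between the unirradiated and -3.95 (-9.34 to -1.26) between the irradiated libraries.

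Of the mitochondrial enzymes, ALDH2 (ENSG00000111275, chr12:111766887-111817529, plus strand), the main acetaldehyde dehydrogenase, had 1500, 1768, 0 and 5 counts. It was abundant in both SW1990 libraries and nearly missing in PANC-1 cells. Against the floor of 3 counts per library, ALDH2 was at least 563-fold higher in SW1990 without radiation, and it was 366-fold higher (156 to 1127) between the irradiated libraries. The line difference passed the test (edgeR adjusted p = 0.00111). ALDH1B1 (ENSG00000137124, chr9:38392664-38398661, plus strand) had 3689, 4063, 1206 and 1453 counts, a log2 fold change of 1.66 (edgeR adjusted p = 0.00238). Its lines did not overlap, with 1.78 between the unirradiated and 1.53 between the irradiated libraries. AC002996.1 overlaps 7% of the exon bases of ALDH2 on the same strand and had 14, 14, 0 and 0 counts.

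The ALDH3 genes were all higher in SW1990 cells. ALDH3A1 (ENSG00000108602, chr17:19737984-19748943, minus strand) had 2988, 2915, 0 and 0 counts. It was at least 1122-fold higher in SW1990 between the unirradiated and at least 1005-fold higher between the irradiated libraries (edgeR adjusted p = 0.000815). Of 5068 protein-coding genes with 0 counts in both PANC-1 libraries, 261 had at least 1 FPKM in both SW1990 libraries and 54 had at least 10, and ALDH3A1 ranked 3 by its lower SW1990 value. Over all genes, 5 were at 0 in 1 PANC-1 library and above 100 counts in the other, and 10 were so in SW1990 cells, and the cause was not tested.

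Its neighbor ALDH3A2 (ENSG00000072210, chr17:19648136-19677598, plus strand) lies on the other strand, with 60385 bases between the genes. It was expressed in both lines, with 1483, 1675, 1017 and 587 counts. The log2 fold change was 1.13 (edgeR adjusted p = 0.0228), with 0.72 between the unirradiated and 1.56 between the irradiated libraries. ALDH3B1 (ENSG00000006534, chr11:68008578-68029282, plus strand), which acts on lipid-derived aldehydes at membranes, had 367, 466, 221 and 267 counts. Its log2 fold change was 0.87 (edgeR adjusted p = 0.0279), and this call was lost without a filter on low counts and with DESeq2.

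ALDH7A1 (ENSG00000164904, chr5:126531200-126595418, minus strand), an enzyme of lysine breakdown, had 928, 1054, 342 and 321 counts. Both SW1990 libraries were above both PANC-1 libraries, with a log2 fold change of 1.69 (edgeR adjusted p = 0.00312) and values of 1.61 and 1.76 between the unirradiated and the irradiated libraries. ALDH9A1 (ENSG00000143149, chr1:165662216-165698863, minus strand) had 1305, 1353, 1243 and 1153 counts. Its log2 fold change was 0.26 and did not pass (edgeR adjusted p = 0.207), with 0.24 and 0.28 between the unirradiated and the irradiated libraries. It was the abundant member with the most similar levels in both lines.

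**Figure D3:**
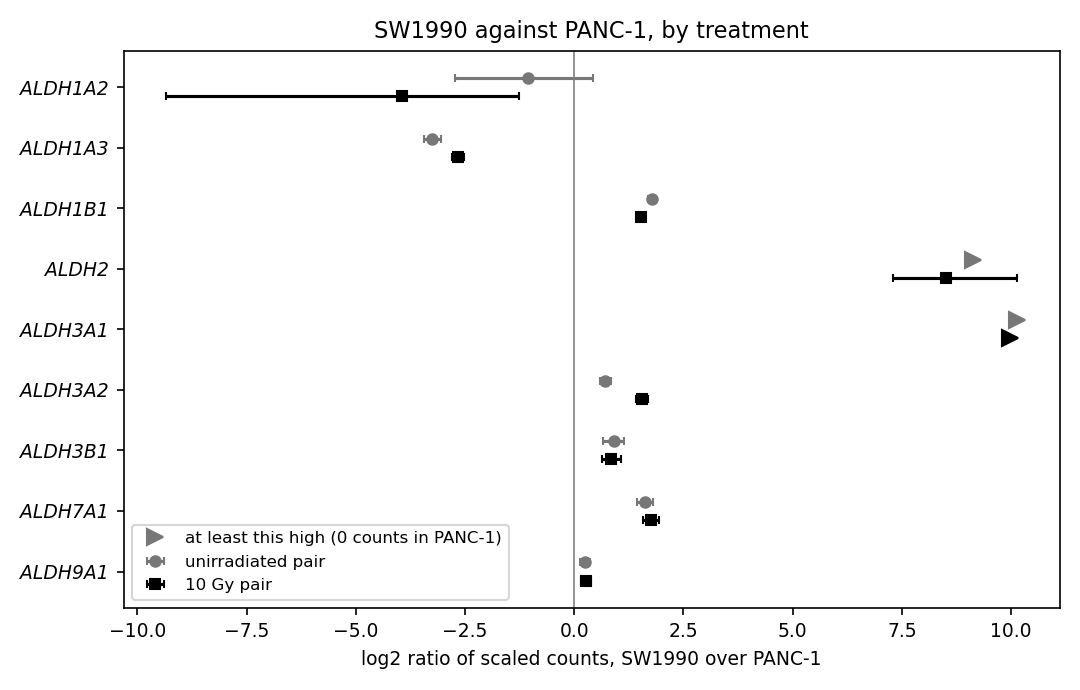
Log2 ratio of scaled counts of SW1990 over PANC-1 cells for 9 genes, for the unirradiated (grey circles) and irradiated (black squares) libraries, with 95% counting intervals; triangles are lower bounds where PANC-1 had 0 counts. ALDH1A3 lies left of 0 (-3.24 and -2.66), ALDH2 and ALDH3A1 lie far to the right, and ALDH9A1 lies near 0 (0.24 and 0.28).

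The second comparison asked whether radiation changed the genes. In the fit over both lines, none of the 9 genes tested passed an adjusted p under 0.05 (edgeR), against 0% of all 18180 genes. Only ALDH1A3 of the 9 had an unadjusted p under 0.05 (log2 fold change 0.60, edgeR adjusted p = 0.936), as did 833 of all genes. DESeq2 called 39 genes and 0 of the 7 aldehyde dehydrogenases it tested, and limma called 0 or 1 genes by the value added to FPKM and 0 of the 8 it tested. The median log2 fold change was 0.13 over the 9 genes and 0.016 over all genes.

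Within each line, the reads of the irradiated and unirradiated libraries were compared by an exact binomial test, and a gene was called at a q-value under 0.001 and a fold change above 2. This compares 2 libraries and not the conditions. In SW1990 cells 0 of 8 tested genes were called, against 4.2% of 15731 genes, and in PANC-1 cells 0 of 6, against 4.77% of 15159 genes. By counts, 6 of the 8 genes in SW1990 cells were higher after radiation with an interval above 0 and the intervals of ALDH3A1 and ALDH9A1 held 0. Of all genes tested in this pair, 25.2% had an interval above 0 and 23.5% one below 0. Intervals narrow with more counts, and the share among genes of like depth was not computed. By FPKM, ALDH1A3, ALDH1B1 and ALDH3B1 of these higher genes also had log2 ratios above 0 (0.81, 0.14 and 0.19). ALDH2, ALDH3A2 and ALDH7A1 had FPKM ratios below 0 (-0.81, -0.37 and -0.02). In PANC-1 cells, 3 of the 6 were higher, ALDH3A2 was lower, and the intervals of ALDH7A1 and ALDH9A1 held 0, against 26% of all genes above and 30.5% below 0. The median log2 ratio was 0.17 in each line, against -0.0067 in SW1990 and -0.017 in PANC-1 cells over all genes.

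Markers of cell types also differed between the libraries of a line. In SW1990 cells all 6 epithelial markers had a log2 ratio above 0, as did 7762 of all 15731 genes tested, with a median of 0.36. The intervals of KRT7 and EPCAM held 0, and 0 of the 6 were called. CDH1 had 9906 and 14345 counts, a log2 ratio of 0.53 (0.49 to 0.56). PDGFRB was called lower, with 129 and 63 counts and a log2 ratio of -1.04 (-1.5 to -0.60). The endothelial markers VWF and CDH5, not tested, went in opposite directions, VWF with 14 and 50 counts and CDH5 with 8 and 0. In PANC-1 cells 5 of 6 epithelial markers had a log2 ratio above 0, as did 7321 of all 15159 genes tested, with a median of 0.14. The intervals of EPCAM and CDH1 held 0. KRT7 was lower, with a log2 ratio of -0.45 (-0.84 to -0.07), and 0 of the 6 were called. CD68 had 967 and 583 counts, a log2 ratio of -0.60 (-0.75 to -0.45). CD14, also on the leukocyte list, went the other way, with 26 and 52 counts, a log2 ratio of 1.13 (0.42 to 1.87). Neither was called. COL1A1 had 103 and 165 counts in SW1990 and 965 and 1315 in PANC-1 cells and was called in neither. The part of these markers in the radiation values was not tested.

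By counts, ALDH1A3 had the widest difference of the 8 genes in SW1990 cells, 250 without and 463 with radiation, a log2 ratio of 0.88 (0.66 to 1.11). By FPKM, ALDH2 was as wide, at -0.81 against 0.81 for ALDH1A3. In PANC-1 cells ALDH1A3 had 2667 and 3022 counts, a log2 ratio of 0.31 (0.23 to 0.39). It was higher after radiation in both lines, and in SW1990 cells the interval reached past 2-fold. The antisense gene AC015712.2 had 114 and 97 counts in SW1990 and 179 and 166 in PANC-1 cells. The difference between the lines in the log2 ratio of ALDH1A3 was 0.57 (0.34 to 0.81), and with 1 library per group this was not tested.

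ALDH1B1 and ALDH3B1 were also higher after radiation in both lines. ALDH1B1 had log2 ratios of 0.13 (0.07 to 0.20) in SW1990 and 0.40 (0.29 to 0.51) in PANC-1 cells. ALDH3B1 had log2 ratios of 0.34 (0.14 to 0.54) and 0.40 (0.14 to 0.67). ALDH3A1, at 2988 and 2915 counts in SW1990 cells, had a log2 ratio of -0.04 (-0.12 to 0.03). ALDH9A1 was nearly level in both lines, at 0.05 (-0.07 to 0.16) and 0.02 (-0.10 to 0.14).

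ALDH3A2 went in opposite directions by counts. It had 1483 and 1675 counts in SW1990 cells, a log2 ratio of 0.17 (0.07 to 0.27), and 1017 and 587 counts in PANC-1 cells, a log2 ratio of -0.66 (-0.81 to -0.51). By FPKM it was lower after radiation in both lines, with log2 ratios of -0.37 and -0.10. Counts and FPKM also disagreed for ALDH2 in SW1990 cells, where counts gave a log2 ratio of 0.23 (0.13 to 0.33) and FPKM gave -0.81. The transcript length that the FPKM values imply for ALDH2 was 3344 bases without and 6751 bases with radiation, and that for ALDH3A2 was 2360, 3355, 2486 and 1787 bases in the 4 libraries. ALDH7A1 had a log2 ratio of 0.18 (0.05 to 0.31) by counts and -0.02 by FPKM in SW1990 cells, and 0.04 (-0.19 to 0.26) by counts and 0.35 by FPKM in PANC-1 cells.

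**Figure D4:**
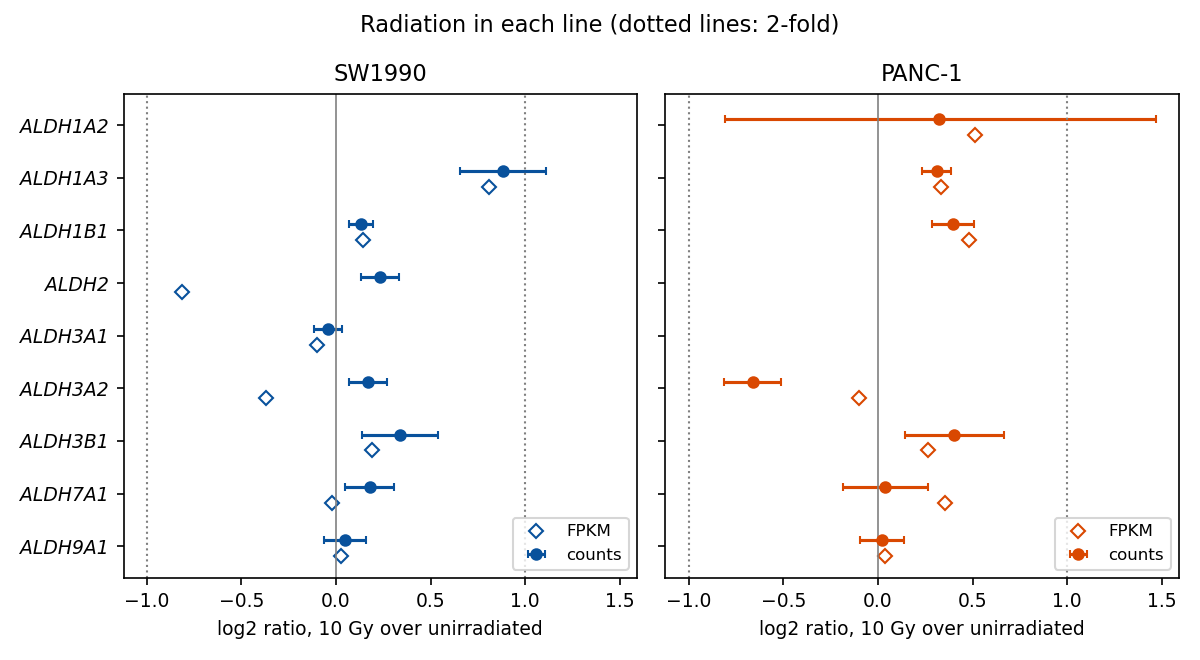
Log2 ratio of irradiated over unirradiated cells in SW1990 (left) and PANC-1 (right), from counts with 95% counting intervals (filled) and from FPKM (open); genes under 10 counts in either library are left out and dotted lines mark 2-fold. All points lie within the dotted lines, and ALDH2, ALDH3A2 and ALDH7A1 in SW1990 cells have FPKM points on the other side of 0 from their counts.

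The other 9 human aldehyde dehydrogenase genes were measured for comparison. Between the lines, 6 of 7 tested were called, against 43.6% of all 18180 genes tested. Of the 6, 5 were higher in SW1990 and 1 higher in PANC-1 cells, and the median log2 fold change of the 7 was 1.26. ALDH1L1, a folate enzyme of the cytosol, had 719, 931, 0 and 6 counts, at least 270-fold higher in SW1990 without radiation and 160-fold (73.4 to 438) with it. Its mitochondrial relative ALDH1L2 had the opposite pattern, 42, 43, 468 and 186 counts (log2 fold change -2.69, edgeR adjusted p = 0.00898). ALDH5A1, which completes the breakdown of GABA, had 802, 347, 27 and 43 counts (log2 fold change 4.03, edgeR adjusted p = 0.00666). ALDH6A1, of valine breakdown, was higher in SW1990 (2.53, edgeR adjusted p = 0.00206), as were ALDH18A1, of proline synthesis (1.26, edgeR adjusted p = 0.00397), and ALDH16A1 (0.82, edgeR adjusted p = 0.024). ALDH4A1, of proline breakdown, was not called (-0.20, edgeR adjusted p = 0.493), and AL080251.1 overlaps 41.1% of its exon bases on the same strand. ALDH8A1 (4, 0, 0 and 11 counts) and ALDH3B2 (6, 6, 0 and 0 counts) were not tested.

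After radiation, ALDH5A1 was called lower in SW1990 cells, the only call among 6 tested there, against 4.2% of all genes. It had 802 and 347 counts and a log2 ratio of -1.22 (-1.40 to -1.03). ALDH1L2 was called lower in PANC-1 cells, the only call among 5, against 4.77% of all genes. It had 468 and 186 counts and a log2 ratio of -1.20 (-1.45 to -0.95). In SW1990 cells ALDH1L2 was under the filter, at 42 and 43 counts. In the fit over both lines 0 of the 7 tested were called.

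Genes that work beside the aldehyde dehydrogenases were taken from 4 hand-made lists. The retinoid list holds enzymes, carriers and receptors that make, bind and read retinoic acid. Of its 20 genes, 14 were tested between the lines and 9 were called, against 43.6% of all 18180 genes tested. Of the 9, 5 were higher in SW1990 and 4 higher in PANC-1 cells, and the median log2 fold change of the 14 was -0.06. DHRS9, a retinol dehydrogenase, had 0, 0, 297 and 252 counts, at least 87.9-fold and 81.2-fold lower in SW1990 cells. DHRS3, which returns retinaldehyde to retinol, had 79, 126, 1094 and 1257 counts (log2 fold change -3.44, edgeR adjusted p = 0.00105). Both were high where ALDH1A3 was high. STRA6, the receptor for retinol-binding protein, had 0, 0, 24 and 29 counts, and FABP5, a lipid carrier, had 876, 1138, 286 and 269 (1.96, edgeR adjusted p = 0.0028).

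Aldehydes are also reduced to alcohols by aldo-keto reductases and related enzymes. Of 19 genes on this list, 13 were tested and 10 were called, against 43.6% of all genes tested. Of the 10, 7 were higher in SW1990 and 3 higher in PANC-1 cells, and the median of the 13 was 1.04. AKR1C1 had 115, 66, 0 and 0 counts, AKR1C2 had 89, 57, 0 and 0, and AKR1C3 had 64, 43, 0 and 0. These near-identical genes may share reads, so the split between them is uncertain. AOX1, an aldehyde oxidase, had the opposite pattern, 0, 0, 59 and 57 counts.

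ALDH3A1 belongs to the genes that the aryl hydrocarbon receptor (AHR) can induce. Of 8 other genes on this list, 7 were tested and 6 were called, against 43.6% of all genes tested. Of the 6, 2 were higher in SW1990 and 4 higher in PANC-1 cells, and the median of the 7 was -1.46. NQO1, a quinone reductase, had 13794, 10850, 1538 and 1658 counts (3.05, edgeR adjusted p = 0.00123), and CYP1A1, a cytochrome P450, had 146, 106, 36 and 37 (1.87, edgeR adjusted p = 0.0177). CYP1B1, of the same family, had 519, 294, 6583 and 9477 counts (-4.22, edgeR adjusted p = 0.0029), and AHR itself had 915, 1395, 4024 and 4086 (-1.74, edgeR adjusted p = 0.00316). The list therefore split in direction, with NQO1 and CYP1A1 on the side of ALDH3A1.

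Of 9 markers used to enrich stem-like tumor cells, 7 were tested and 6 were called, against 43.6% of all genes tested. Of the 6, 4 were higher in SW1990 and 2 higher in PANC-1 cells, and the median of the 7 was 1.87. PROM1 (CD133) had 1177, 1615, 0 and 0 counts, at least 442-fold and 557-fold higher in SW1990 cells. LGR5, a Wnt pathway receptor, had 1078, 768, 2 and 10 counts (7.33, edgeR adjusted p = 0.00192). EPCAM, an epithelial adhesion protein that is also on the epithelial list, had 7348, 7552, 108 and 113 (6.18, edgeR adjusted p = 0.00076). ABCG2, a drug efflux pump, had 132, 213, 2985 and 3503 counts (-4.16, edgeR adjusted p = 0.000804). Calls of this list were split between the lines. In the fit over both lines, radiation called 0 genes of the 4 lists. Within SW1990 cells, 11, 12, 7 and 7 genes of the retinoid, reduction, AHR and stem cell lists were tested. Of these, 0, 0, 0 and 1 were called, against 4.2% of all genes. Within PANC-1 cells, 11, 6, 6 and 4 were tested and 0 were called, against 4.77% of all genes. The 1 call was CD24 in SW1990 cells, with 74 and 202 counts and a log2 ratio of 1.44 (1.05 to 1.85). In PANC-1 cells CD24 was under the FPKM filter and was not tested, with 24 and 54 counts and a log2 ratio of 1.3 (0.58 to 2.06). CD24 is a surface protein and was named because it was called.

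**Figure D5:**
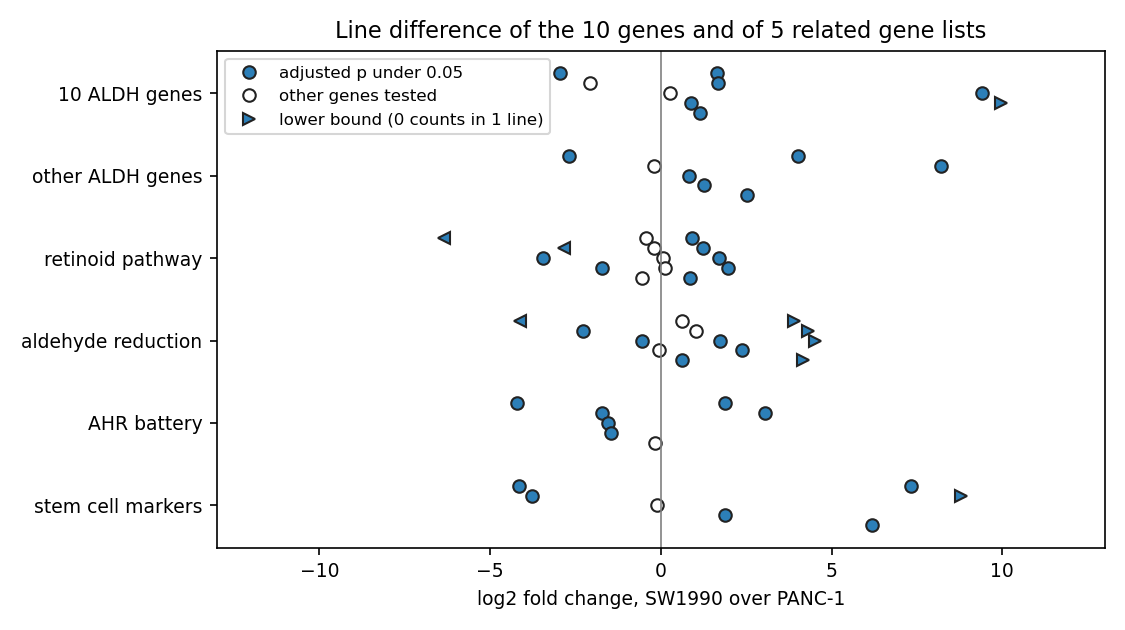
Log2 fold change of SW1990 over PANC-1 cells for each tested gene of the 10 aldehyde dehydrogenases and of 5 related lists; filled points passed an adjusted p under 0.05 and triangles are lower bounds for genes at 0 counts in both libraries of a line. Calls lie on both sides of 0 in every list, and 6 of the 7 called genes of the 10 lie to the right.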

How the data were processed

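The authors deposited 1 table with raw read counts and FPKM values per gene and library. The counts are not normalized. The FPKM values, which the authors computed with StringTie, are scaled to transcript length and library size. The submitters' processing notes name FastQC 0.11.2, Trimmomatic 0.36, HISAT2 2.0, StringTie 1.3.3b, DESeq2 1.12.4 and GRCh38. The counting tool and strand setting are not given in the sources used here. The labels name removal of ribosomal RNA, while the methods name an mRNA kit. Of 59263 rows, 1089 name no gene and held between 0.453% and 0.635% of the counts; they were left out. Columns of the authors' own comparisons were not used.

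The members and lists were chosen with earlier results of these data known. Counts of all 4 libraries were fitted with edgeR 4.0.16 in R 4.3.3 (quasi-likelihood, TMM, filterByExpr by line, line and treatment as terms, Benjamini-Hochberg adjustment, 1 residual degree of freedom, common coefficient of variation 0.218). Pairs of libraries were compared by a two-sided exact binomial test on TMM-scaled counts, for genes of at least 1 FPKM in 1 library. Intervals are Clopper-Pearson (ratios) or exact Poisson (levels) at 95%, with a normal approximation for differences between log2 ratios. Fitted fold changes of genes at 0 are not printed. Named are all aldehyde dehydrogenases, up to 4 genes per list with the largest line difference, and cell type markers. A planned search for genes patterned like ALDH1A1 was not made, since the gene had 4 counts in all. Tested on simulated data in which 200 genes differed 4-fold, the line fit recovered 194 with 13 false calls and the radiation fit 193 with 9 (18180 genes each, coefficient of variation 0.1, below that of the real libraries). With counting error alone simulated, the pair tests recovered 179 of 200 changed genes in SW1990 (15731 genes tested) and 183 of 200 in PANC-1 cells (15159 genes tested), with 0 false calls. Alternatives varied scaling, filters, fold limits, assumed spread and unit, and used DESeq2 1.42.0 and limma 3.58.1.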

Additional observations from a re-analysis of the deposited data

Results flagged for a closer look

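For ALDH3A2 and ALDH5A1, the counts after radiation went in opposite directions in the lines, with counting intervals on opposite sides of 0. They were picked by this rule among the aldehyde dehydrogenases with at least 10 counts in every library. The share of all genes that meet the rule was not computed. Intervals off 0 were common, with 25.2% of all genes above and 23.5% below in SW1990, and 26% and 30.5% in PANC-1 cells. With 1 library per group, neither difference was tested. ALDH3A2 had a log2 ratio of irradiated over unirradiated cells of 0.17 in SW1990 and -0.66 in PANC-1 cells, a difference of 0.83 (counting interval 0.65 to 1.01), while by FPKM it was lower in both lines (-0.37 and -0.10). ALDH5A1 had log2 ratios of -1.22 in SW1990 and 0.80 (0.07 to 1.55) in PANC-1 cells, a difference of -2.02 (-2.74 to -1.30), and by FPKM the ratios were -1.11 and 0.70. ALDH5A1 had only 27 and 43 counts in PANC-1 cells.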

How the results depend on the processing

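With a fold limit of 1.5, 1 of the 8 genes tested in SW1990 (ALDH1A3) was called, against 1472 of all 15731 genes. In PANC-1 cells 1 of the 6 tested (ALDH3A2) was called, against 1794 of all 15159 genes. Under the main limit, 0 were called in each line. By FPKM, the log2 ratio of ALDH3A2 in PANC-1 cells was -0.10. Between the lines, 6 or 7 genes were called, and ALDH3B1 was the one lost, without a filter and with DESeq2. Over all genes, the line calls were 7921 of 18180, 6105 of 30227 without a filter and 6124 of 18180 with DESeq2. Of 119 values of single genes, 6 reversed in direction and 2 lost their call. The other values kept direction and any call, and 8 of these were marked as moved in size. These 8 were line values of ALDH1A2 and ALDH2 from single pairs, and radiation values of ALDH1A3, ALDH3A2 and ALDH7A1 in PANC-1 cells. The remaining 103 could also differ in size. ALDH3B1 between the lines was 0.87 in the main fit and 1.61 with limma on log2(FPKM + 0.1). The reversed values are log2 ratios after radiation in SW1990 cells by FPKM with 0.1 or 1 added: ALDH2 (-0.81, -0.77), ALDH3A2 (-0.37, -0.36) and ALDH7A1 (-0.024, -0.023). The cause was not tested. Over all genes, the pair tests called 661 in SW1990 and 723 in PANC-1 cells, 1472 and 1794 at a fold limit of 1.5, 99 and 103 with an assumed coefficient of variation of 0.2, 15 and 10 with 0.4, and 1662 and 1540 by FPKM alone. For radiation over both lines, DESeq2 called 39 genes and edgeR 0. The fit for radiation pairs the libraries by line, and leaving out a library leaves it with 0 residual degrees of freedom. Depth limits what can be said of ALDH1A1 and ALDH1A2 in all libraries and of ALDH2 and ALDH3A1 in PANC-1 cells.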
